A study of Mus musculus with 12 samples.

Results

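The collapsin response mediator proteins (CRMPs) are a family of 5 genes in the mouse, Crmp1, Dpysl2, Dpysl3, Dpysl4 and Dpysl5, and their RNA was followed through forebrain development. The members were taken from the expression table by gene symbol alone. All 5 were among its 12158 genes, and all 5 were among the 12102 genes that passed a filter on low values. Dpys, the liver and kidney enzyme dihydropyrimidinase that gives the Dpysl genes their name, was not in the table.

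CRMPs are cytosolic phosphoproteins that are abundant in neurons while axons grow. Crmp1 encodes CRMP1, Dpysl2 CRMP2, Dpysl3 CRMP4, Dpysl4 CRMP3 and Dpysl5 CRMP5, and the proteins can join into mixed complexes. CRMP2 binds tubulin and helps microtubules to assemble in the growing axon. In the response of the growth cone to semaphorin 3A, a repulsive guidance signal received by neuropilins and plexins, the kinase Cdk5 primes CRMPs for Gsk3, and the phosphorylated protein releases tubulin.

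The libraries were made from bulk forebrain of C57BL/6N mice, at e12.5, e14.5 and e17.5 (e for embryonic day), at birth (P0) and from adults labelled P56. At every stage the animals were Chd8+/del5 mice, which carry a germline deletion in 1 copy of the chromatin remodeller gene Chd8, and wild-type littermates. RNA with poly(A) tails was sequenced in 8 libraries of e12.5, 9 of e14.5, 10 of e17.5, 11 of P0 and 6 of adults. Each column name gives a stage and digit codes without a key in the labels, so the libraries were left without a genotype and each stage below holds both. No label ties a single library to an animal, so a range covers the spread between libraries, which may be technical.

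Levels are log2 RPKM, where RPKM is a read count scaled by the length of the gene and the size of the library. With that scaling, levels can be set beside each other between genes. The libraries are numbered within a stage by their place in the table, which is only a name. A gene was called higher or lower between a pair of stages when the ranges of their libraries did not overlap, and no p-value is given, since each stage mixes the genotypes. Differences are the later stage's median minus the earlier stage's median.

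The labelled tissue was checked with Lhx2, a transcription factor of the developing forebrain, which had medians of 7.23, 6.66, 6.02, 5.99 and 4.86 log2 RPKM from e12.5 to adult. Of 6 genes listed for midbrain and hindbrain, 2 had values. Of these, only Gbx2 passed the filter, with medians of 4.02, 3.46, 0.88, 1.50 and −2.59. This gene alone cannot show whether such tissue was present. Chd8, the targeted gene, had medians of 4.31, 4.01, 3.94, 4.14 and 3.72. Sequencing was paired-end at e12.5 and single-end at the other stages, so read type and stage cannot be told apart in comparisons with e12.5. Relative depth, which low values gave in 34 libraries, ran from 0.57 to 2.11. None of the e17.5 libraries holds a value at the low floor that libraries of the other stages share, so their scale could not be checked in this way. Xist, which is expressed from the inactive X chromosome of females, lay above 0 in 9 of 11 P0 and 1 of 6 adult libraries, so the mix of the sexes differed between these stages.

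RefSeq promoter windows on build GRCm38.p6 were at hand for only Crmp1 and Dpysl5 of the family, and all of these are shown. The levels played no part in this choice, and no link between windows and levels was tested. Each window runs from 250 bases before to 50 bases after an annotated start, and both genes lie on the + strand of chromosome 5. Capitals mark the GC box, GGGCGG or CCGCCC on the other strand, a letter pattern known from binding sites of Sp family factors. Crmp1 has 2 annotated starts with a window, and RPKM per gene does not tell them apart.
Crmp1, first start, chr5:37241808-37242107: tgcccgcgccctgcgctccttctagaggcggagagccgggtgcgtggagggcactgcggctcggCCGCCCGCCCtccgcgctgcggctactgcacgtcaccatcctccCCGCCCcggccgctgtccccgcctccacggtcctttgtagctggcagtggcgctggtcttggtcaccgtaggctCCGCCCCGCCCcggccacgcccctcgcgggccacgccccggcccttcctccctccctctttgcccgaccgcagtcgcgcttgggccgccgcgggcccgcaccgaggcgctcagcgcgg
Crmp1, second start, chr5:37245514-37245813: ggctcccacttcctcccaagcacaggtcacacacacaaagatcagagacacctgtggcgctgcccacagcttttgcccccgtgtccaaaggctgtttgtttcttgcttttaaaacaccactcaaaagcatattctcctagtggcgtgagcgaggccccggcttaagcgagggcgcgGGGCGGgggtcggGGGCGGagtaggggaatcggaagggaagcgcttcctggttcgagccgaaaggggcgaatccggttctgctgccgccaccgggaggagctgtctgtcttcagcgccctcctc
Dpysl5, chr5:30711314-30711613: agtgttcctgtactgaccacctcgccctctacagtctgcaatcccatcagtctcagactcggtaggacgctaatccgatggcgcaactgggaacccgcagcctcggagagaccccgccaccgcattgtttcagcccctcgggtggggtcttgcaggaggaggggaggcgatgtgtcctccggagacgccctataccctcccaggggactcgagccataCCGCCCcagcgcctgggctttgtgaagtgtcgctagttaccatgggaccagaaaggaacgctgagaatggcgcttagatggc
The window at the first Crmp1 start is 77.0% G and C and holds 41 CpG and 5 GC boxes, counting boxes that share bases. The second Crmp1 window is 61.0% G and C, with 20 CpG and 2 GC boxes. The Dpysl5 window is also 61.0% G and C, with 19 CpG and 1 GC box. Neither CCAAT nor TATAAA was found on either strand of the 3 windows. Over all 32851 windows of the table, the median was 52.7% G and C and 7 CpG, and 35.7% held a GC box, 37.4% CCAAT and 13.6% TATAAA. At least 41 CpG were found in 3.46% of those windows and at least 5 GC boxes in 2.71%.

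Crmp1, Dpysl3 and Dpysl5 had their highest median at P0 and were far lower in adults, while Dpysl2 and Dpysl4 varied over a narrower range. Crmp1 ranked 26th, Dpysl3 41st and Dpysl5 134th of 12102 genes by their median at P0. In adults the same genes ranked 1035th, 7033rd and 7471st. The largest difference between stage medians was 5.65 for Dpysl3, 4.80 for Dpysl5 and 3.17 for Crmp1, larger than in 95.6%, 93.3% and 84.1% of all genes. It was 1.60 for Dpysl2 and 1.50 for Dpysl4, larger than in 58.0% and 54.9%. In these bulk samples, fewer cells of a type and less RNA per cell cannot be told apart.

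**Figure D1:**
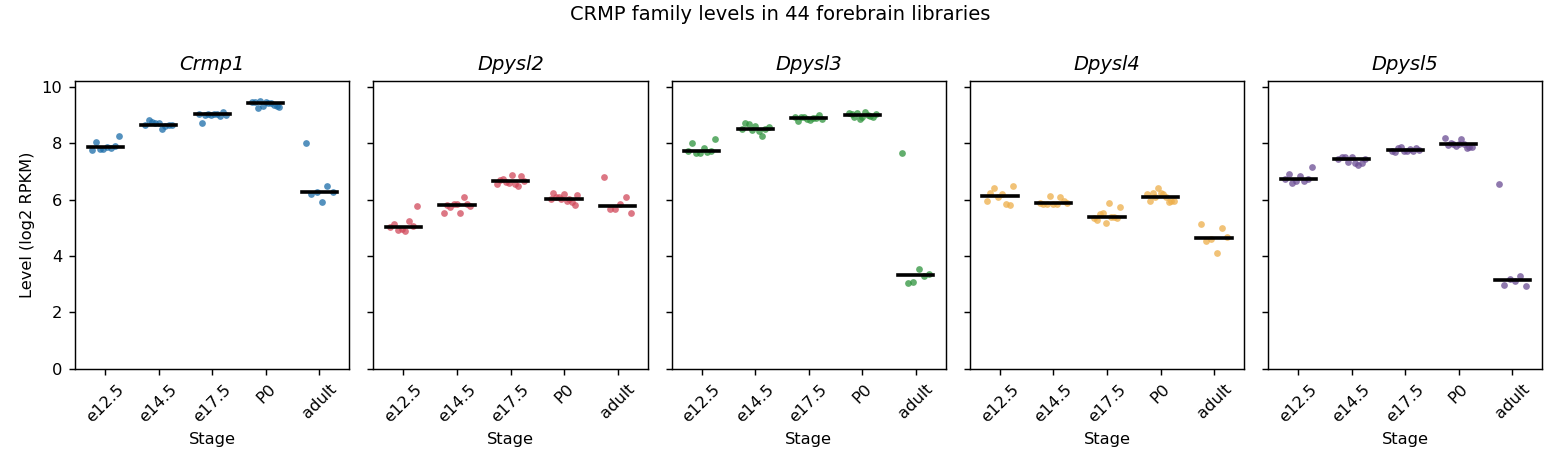
Level of each CRMP family gene (log2 RPKM, vertical axis) in 44 forebrain libraries by stage, with 1 point per library and a bar at the stage median. Dpysl3 and Dpysl5 lie between 2.95 and 3.53 in 5 adult libraries, with the sixth at 7.65 and 6.56.

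Crmp1, which takes part in the response to semaphorin 3A, had a lowest, median and highest level of 7.76, 7.86 and 8.27 at e12.5, 8.52, 8.64 and 8.84 at e14.5, and 8.70, 9.01 and 9.11 at e17.5. At P0 these were 9.23, 9.42 and 9.50, the highest of any stage and apart from all others. In adults the 6 libraries held 8.01, 6.18, 6.25, 5.92, 6.49 and 6.26, so that 5 lay below every library of the embryonic stages and P0, and library 1 lay within the e12.5 range.

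Dpysl3, whose protein CRMP4 also binds actin filaments, followed a like course to P0. Its lowest, median and highest levels were 7.65, 7.73 and 8.13 at e12.5, 8.25, 8.51 and 8.71 at e14.5, 8.78, 8.89 and 8.997 at e17.5, and 8.86, 8.98 and 9.12 at P0. The ranges of e17.5 and P0 overlapped, and those of the earlier stages lay below them. The adult libraries held 7.65, 3.03, 3.07, 3.53, 3.29 and 3.37, with library 1 at the low end of the e12.5 range and the other 5 below every library of every other stage.

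Dpysl5, whose protein CRMP5 is the most divergent of the family and can oppose the effect of CRMP2 on neurite growth, was about 1 log2 unit lower than Dpysl3 at each stage up to P0. It had 6.59, 6.74 and 7.14 (lowest, median and highest) at e12.5, 7.21, 7.42 and 7.52 at e14.5, 7.70, 7.75 and 7.86 at e17.5, and 7.82, 7.96 and 8.17 at P0. Only e17.5 and P0 overlapped among neighbouring stages from e12.5 to P0. In adults the libraries held 6.56, 2.96, 3.19, 3.13, 3.30 and 2.95, and all 6 lay below every library of e12.5 to P0.

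Dpysl2, the tubulin-binding CRMP2, was the member with its highest median at e17.5. Its lowest, median and highest levels were 4.89, 5.04 and 5.76 at e12.5, 5.53, 5.81 and 6.11 at e14.5, 6.48, 6.64 and 6.87 at e17.5, and 5.82, 6.03 and 6.23 at P0. Every e17.5 library lay above every library of e12.5, e14.5 and P0. The adult libraries held 6.78, 5.67, 5.68, 5.85, 6.08 and 5.53, and their range overlapped that of each other stage. The overlap with e17.5 came from adult library 1 alone, since the other 5 lay at 5.53 to 6.08, and that with e12.5 came from e12.5 library 8 alone.

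Dpysl4, which encodes CRMP3, had its highest median at e12.5. It had 5.80, 6.14 and 6.50 (lowest, median and highest) at e12.5, 5.85, 5.87 and 6.12 at e14.5, 5.17, 5.39 and 5.86 at e17.5, and 5.90, 6.11 and 6.40 at P0. The ranges of e12.5, e14.5 and P0 overlapped. Dpysl4 was higher at P0 than at e17.5 with the ranges apart, while Dpysl2 was lower at P0 than at e17.5. In adults the libraries held 5.14, 4.52, 4.59, 4.11, 4.99 and 4.68, all below every earlier library.

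Between e14.5 and e12.5, 3 of 5 members were higher at e14.5 and 0 were lower. Crmp1 differed by 0.78, Dpysl3 by 0.78 and Dpysl5 by 0.68, with the ranges apart. Dpysl2 differed by 0.77 and Dpysl4 by −0.26, with overlapping ranges. Of all genes, 23.1% were higher and 22.3% lower at e14.5, and the median difference was 0.03, against 0.77 for the 5 members. Dpysl2 overlapped through e12.5 library 8, at 5.76: without it the highest e12.5 level was 5.26, and Dpysl2 was also higher at e14.5.

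Between e17.5 and e14.5, 3 of 5 members were again higher at the later stage and 0 were lower, beside 13.1% of all genes higher and 12.1% lower. Dpysl2 differed by 0.83, Dpysl3 by 0.39 and Dpysl5 by 0.33. Crmp1 differed by 0.38 with overlapping ranges, which were apart without e17.5 library 2. Dpysl4 differed by −0.48 with overlapping ranges, which were apart, lower at e17.5, without e17.5 library 6. With all libraries set to 1 common distribution (quantile normalization), only Dpysl2 of the 3 had its ranges apart.

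Between P0 and e17.5, 2 of 5 members were higher at P0 and 1 was lower. Of all genes, 4.89% were higher and 6.28% lower, with a median difference of −0.0015. Crmp1 differed by 0.41 and Dpysl4 by 0.71, both higher at P0, and Dpysl2 differed by −0.61, lower at P0. Dpysl3 differed by 0.08 and Dpysl5 by 0.21, with overlapping ranges. Under quantile normalization Dpysl2 stayed apart and the ranges of Crmp1 and Dpysl4 overlapped. The e17.5 column names carry 2 sets of S numbers with 5 libraries each, and Dpysl2 had medians of 6.63 and 6.65 in the sets S158 to S163 and S1 to S5, and Dpysl4 medians of 5.34 and 5.40.

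Because e17.5 could not be checked at the floor, P0 was also set against e14.5. There 3 of 5 members were higher at P0 and 0 were lower, beside 22.7% of all genes higher and 23.1% lower. Crmp1 differed by 0.78, Dpysl5 by 0.54 and Dpysl3 by 0.47, the last with overlapping ranges under quantile normalization. Dpysl2 differed by 0.22 and Dpysl4 by 0.23, with overlapping ranges. This pair shares its e14.5 libraries with the pairs before it.

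**Figure D2:**
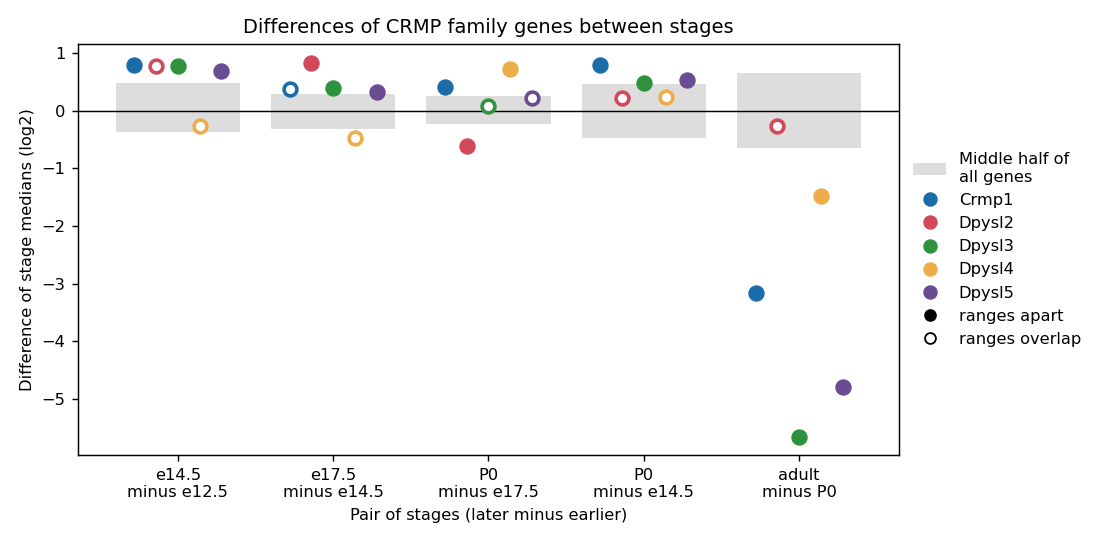
Difference of stage medians (log2, later minus earlier, vertical axis) for each CRMP family gene in 5 pairs of stages, with filled points where the ranges did not overlap. Grey bars span the interquartile range of 12102 genes, and the 4 members that were lower in adults lie from −1.47 to −5.65, below the bar.

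Between adult and P0, 4 of 5 members were lower in adults and 0 were higher, beside 25.2% of all genes lower and 29.3% higher. Dpysl3 differed by −5.65, a level 50.3-fold lower in adults by the medians, and was 16th in the order of the lowest differences of 12102 genes. Dpysl5 differed by −4.80, which is 27.9-fold lower, and was 35th. Crmp1 differed by −3.17, which is 8.98-fold lower, and was 197th. Dpysl4 differed by −1.47, which is 2.78-fold lower, and was 1069th. Dpysl2 differed by −0.26 with overlapping ranges. The median difference was −3.17 over the 5 members and −0.01 over all genes, and the calls of all 5 members were the same under every alternative run. For the 4 lower members, only median centring, quantile normalization and the 2-fold rule could have undone the call.

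Markers of other cell types moved between the same stages, and their part in these differences was not tested. Of 9 markers of immature neurons, 6 were lower and 0 higher in adults, with a median difference of −2.58, beside the 25.2% of all genes that were lower and 29.3% that were higher. Their summed level was 602 to 1666 RPKM in adults and 3483 to 4341 RPKM at P0. These 9 include Dcx and Tubb3, named below among the genes most like Dpysl3 and Crmp1. Tubb3 is also a partner gene below. Of 9 progenitor markers, 6 were likewise lower and 1 higher in adults, with a median difference of −2.05. All 8 markers of mature neurons were higher in adults, with a median difference of 2.26. Of 9 oligodendrocyte lineage markers that passed the filter, 8 were higher and 0 lower, with a median difference of 4.09. The adult library in which Xist was above 0, library 6, held Dpysl3 at 3.37, within the range of libraries 2 to 5.

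The summed RPKM of the family gives the course of its RNA relative to the size of each library, not an absolute amount. The median sum was 643 RPKM (623 to 873) at e12.5, 1066 (969 to 1170) at e14.5, 1354 (1205 to 1442) at e17.5, 1574 (1481 to 1666) at P0 and 168 (156 to 698) in adults. The P0 median was 2.45-fold that of e12.5, and the adult median was 9.38-fold lower than that of P0. The sum did not overlap between P0 and any other stage.

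**Figure D3:**
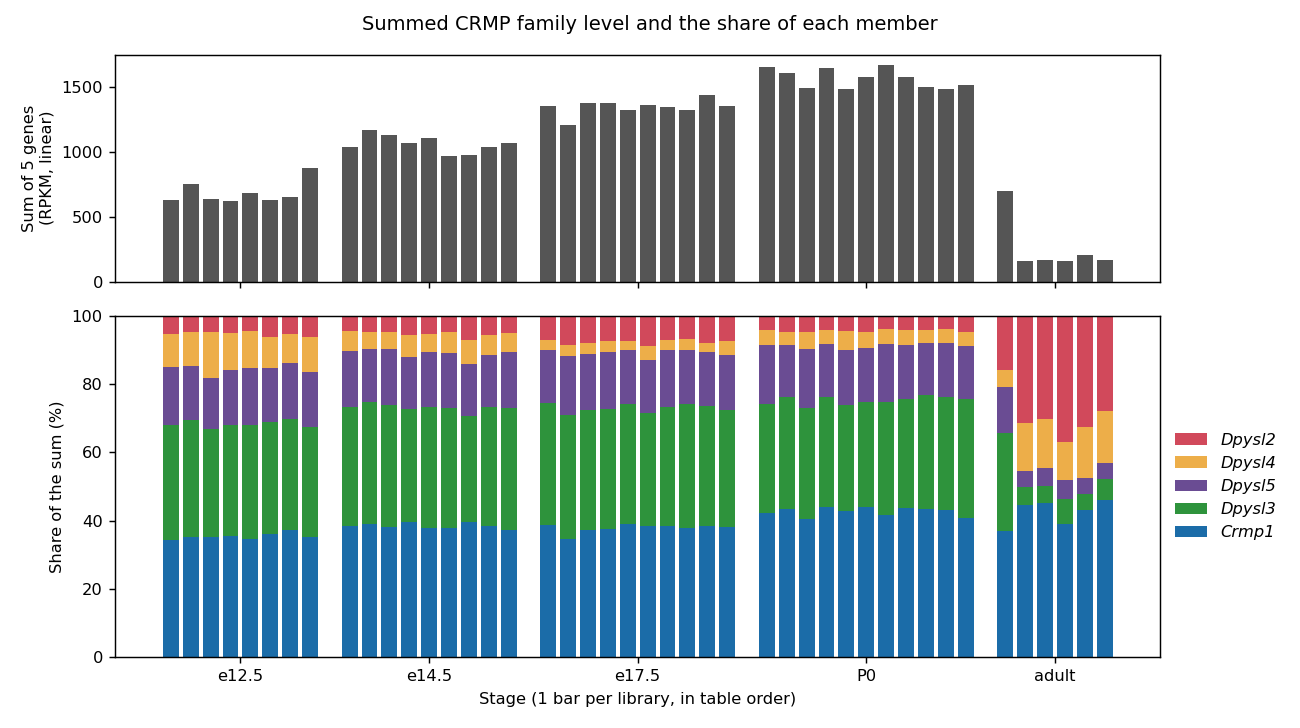
Summed RPKM of the 5 genes (upper panel, linear scale) and the share of each gene in that sum (lower panel, percent), with 1 bar per library in 5 stages. Dpysl3 holds 30.7 to 35.0% of the sum at P0, and Dpysl2 holds 27.8 to 37.0% in adult libraries 2 to 6.

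Crmp1, Dpysl3 and Dpysl5 made up most of the sum up to P0, and the makeup was different in adults. From e12.5 to adult, the median share of Crmp1 was 35.3, 38.3, 38.2, 43.2 and 43.8%, so it held the largest share throughout. Dpysl3 held 32.7, 35.3, 35.3, 32.6 and 5.62%, and Dpysl5 held 16.1, 16.1, 16.1, 15.8 and 5.09%. Larger shares in adults than at P0 were held by Dpysl2, with 5.06, 5.06, 7.35, 4.12 and 30.8%, and by Dpysl4, with 10.1, 5.66, 3.19, 4.38 and 14.2%. The adult share of Dpysl2, 15.8 to 37.0% over the 6 libraries, lay above its share in every library of the other stages, 3.72 to 8.63%. Adult library 1 differed from the other adults in its makeup, with Dpysl3 at 28.9%, Dpysl5 at 13.5%, Dpysl4 at 5.05% and Dpysl2 at 15.8% of its sum. In the other 5 adult libraries Dpysl3 held 4.68 to 7.43%, Dpysl5 4.64 to 5.61% and Dpysl4 11.1 to 15.4%. Dpysl2 was thus the second member by share in adults, while its own level in adults overlapped that of P0.

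Ordered by the median level, Crmp1 stood above Dpysl3 from e12.5 to P0, then came Dpysl5. The ranges of Crmp1 and Dpysl3 overlapped at e12.5, e14.5 and e17.5, but within a library Crmp1 was the higher in 8 of 8, 9 of 9 and 9 of 10, and in 11 of 11 at P0, where the ranges were apart. Dpysl4 was above Dpysl2 at e12.5 with the ranges apart. At e14.5 and P0 these 2 genes overlapped, with Dpysl4 the higher in 8 of 9 and 8 of 11 libraries, and at e17.5 Dpysl2 was the higher in 10 of 10. In adults the order was Crmp1, Dpysl2, Dpysl4, Dpysl3 and Dpysl5. Of these neighbours, only Dpysl2 and Dpysl4 had ranges apart, although Crmp1 was above Dpysl2 in 6 of 6 libraries.

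Adult library 1 was the highest of the 6 adult libraries for all 5 members. It held Dpysl3 at 202 RPKM, against a median of 9.76 RPKM in the other 5 adult libraries, a 20.7-fold excess. Dpysl5 was 10.8-fold, Crmp1 3.37-fold, Dpysl2 2.15-fold and Dpysl4 1.47-fold higher in library 1 than that median. For Crmp1, Dpysl3, Dpysl4 and Dpysl5, the level in library 1 stood 29.6, 38.7, 25.03 and 35.7% of the way, in linear RPKM, between the median of the other adult libraries and the P0 median. Dpysl2 went past it: library 1 held 110 RPKM, above the P0 median of 65.2 RPKM and above every P0 library.

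**Figure D4:**
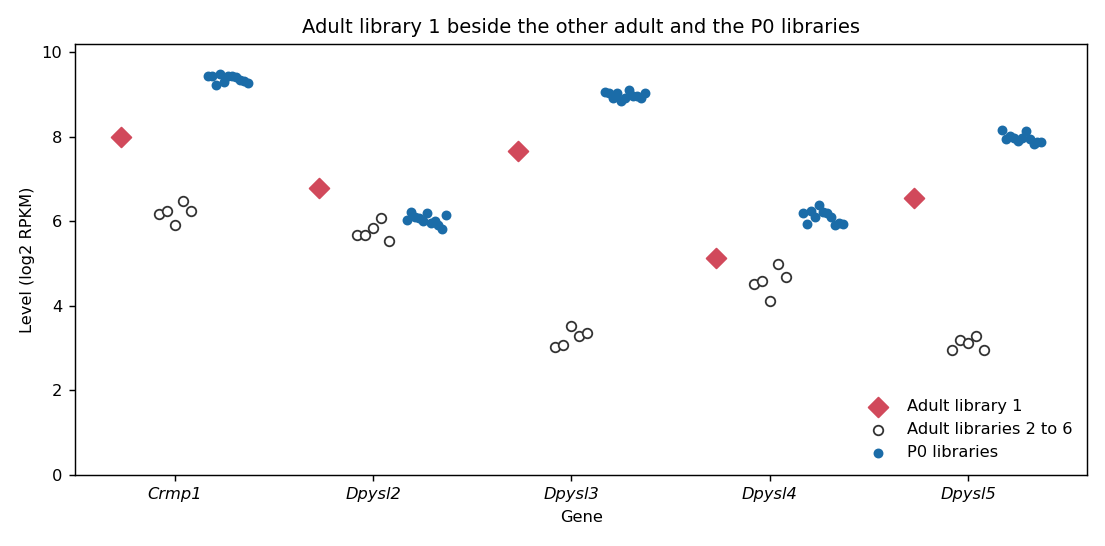
Level (log2 RPKM, vertical axis) of each CRMP family gene in adult library 1, adult libraries 2 to 6 and the 11 P0 libraries, with 1 point per library. Library 1 lies between the other adult libraries and P0 for Crmp1, Dpysl3 and Dpysl5, close to the other adults for Dpysl4, and above P0 for Dpysl2.

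Library 1 also stood apart in marker genes, whose part in its CRMP levels was not tested. Its markers of immature neurons summed to 1666 RPKM, against 602 to 711 RPKM in the other adult libraries, and 7 of 9 were at their highest there. Progenitor markers summed to 146 RPKM, against 64.0 to 102, with 6 of 9 at their highest. Markers of mature neurons summed to 3347 RPKM, against 4297 to 5367, and oligodendrocyte lineage markers to 939 RPKM, against 1337 to 2236. Over all genes library 1 was the highest adult library in 29.9% and the lowest in 26.2%. Without it the differences between adult and P0 were −5.69 for Dpysl3, −4.83 for Dpysl5, −3.17 for Crmp1, −1.52 for Dpysl4 and −0.35 for Dpysl2, and the adult sum was 9.47-fold lower than that of P0.

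At e12.5, library 8 was likewise the highest of its stage in all 5 members. It held Crmp1 at 8.27, Dpysl2 at 5.76, Dpysl3 at 8.13, Dpysl4 at 6.50 and Dpysl5 at 7.14, against highest levels of 8.05, 5.26, 8.01, 6.40 and 6.91 in the other 7 libraries. It was the highest e12.5 library in 17.6% of all genes. Its markers of immature neurons summed to 2669 RPKM, against 2048 to 2299, those of mature neurons to 137, against 92.2 to 122, and 2 embryonic globin genes to 1588, against 2190 to 4300. The part of these cell types in the CRMP levels of library 8 was not tested. Apart from adult library 1 and e12.5 library 8, no library led its stage in more than 2 members.

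Genes that send, receive or regulate the CRMP signal, and other CRMP partners, were described from a list of 40. Fes had no value, and the other 39 passed the filter. Adult against P0, 10 of the 39 were higher and 14 lower, with a median difference of −0.20, where 29.3% of all genes were higher and 25.2% lower. The count of higher partners was thus near the share of all genes. Among 9 genes of the semaphorin signal and its receptors, 0 were higher and 6 lower, with a median difference of −1.46. Adult library 1 was the highest adult library in 9 of these 9, at a sum of 240 RPKM against 113 to 154 in adult libraries 2 to 6. With library 1 left out, 8 were lower, but leaving out a library narrows a range and can only add calls. Over all 12102 genes, leaving out 1 library of either stage at a time gave 3063 to 3635 lower, against 3052 with all libraries. Nrp2, a semaphorin co-receptor, was at 1.95 in adults and 4.68 at P0. Nrp1, the neuropilin that binds semaphorin 3A, was at 2.95 in adults and 4.41 at P0, while the ligand gene Sema3a differed by −0.46 with overlapping ranges. L1cam, an adhesion protein that joins neuropilin in the receptor, differed by −1.48.

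Of 13 kinase and phosphatase genes, 3 were higher and 3 lower in adults, with a median difference of −0.09, counts near the shares of all genes just given. Camk2a, a calcium-dependent kinase of mature excitatory neurons and itself among the mature markers, was at 9.58 in adults and 5.14 at P0. Cdk5 and Gsk3b, which phosphorylate CRMP2 in turn, differed by 0.32 and −0.34, both with overlapping ranges. Cdk5r2, which encodes an activator of Cdk5, was higher at each later stage of all 5 pairs, at 7.93 in adults and 7.07 at P0. Fyn, a kinase that phosphorylates CRMPs, differed by −1.14, lower in adults. Without adult library 1, 4 of the 13 were higher and 5 lower, where again calls can only be added. Of all 12102 genes, leaving out 1 library of either stage at a time gave 3552 to 3771 higher and 3063 to 3635 lower. With all libraries these were 3540 and 3052.

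Of 17 genes for cytoskeleton, cargo and other partners, 7 were higher and 5 lower in adults, beside the same 29.3% and 25.2% of all genes, and the median difference was 0.17, or −0.07 under quantile normalization. The tubulin genes were the lowest, with Tubb2b at 5.36 in adults and 10.56 at P0, Tuba1a at 7.76 and 11.26, and Tubb3 at 8.28 and 10.85. Near-identical tubulin genes can share reads, so these levels are uncertain. Tubb2b differed by −5.21, between the −5.65 of Dpysl3 and the −4.80 of Dpysl5. Kif5a, a kinesin motor of axonal transport, was at 9.25 in adults and 6.60 at P0. Chn1, a regulator of Rac signalling in axon guidance, was at 7.93 in adults and 4.87 at P0, and Numb, an endocytic adaptor reported to bind CRMP2, at 4.14 and 2.08.

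**Figure D5:**
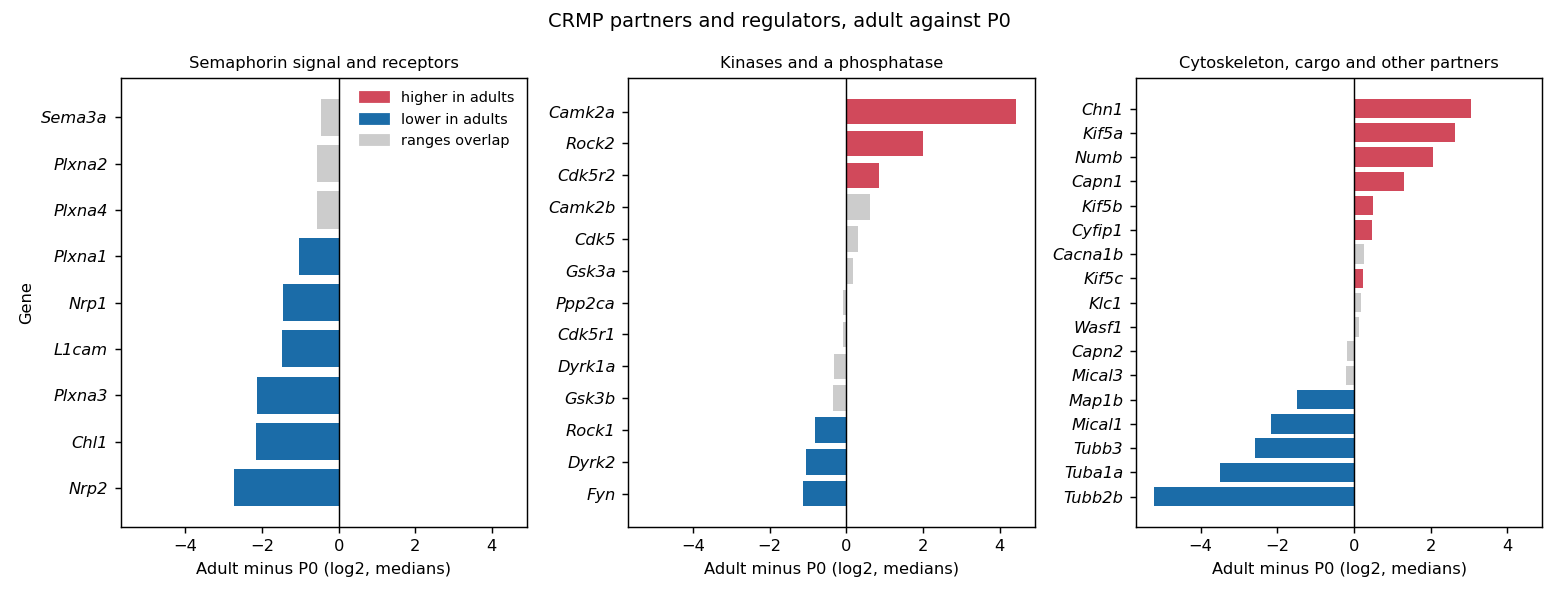
Difference of medians between adult and P0 (log2, horizontal axis) for 39 CRMP partner and regulator genes in 3 groups, coloured where the ranges did not overlap. None of the 9 semaphorin genes is higher in adults, and the cytoskeletal group spans from −5.21 for Tubb2b to 3.06 for Chn1.

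Up to P0 the counts of partner genes stand beside shares of all genes that were close to equal in both directions. Between e14.5 and e12.5, 13 of 39 were higher and 6 lower at e14.5, beside 23.1% and 22.3% of all genes, led by Camk2b at 2.78, the adhesion gene Chl1 at 1.73 and the semaphorin receptor Plxna4 at 1.428, with Numb at −0.62, Tuba1a at −0.51 and the kinesin gene Kif5b at −0.36. Between e17.5 and e14.5, 10 were higher and 0 lower, beside 13.1% and 12.1% of all genes, led by Camk2b at 1.79, Cdk5r2 at 1.13 and Camk2a at 1.08. Between P0 and e17.5, 8 were higher and 1 lower, beside 4.89% and 6.28% of all genes, with Cdk5r2 at 1.49, Camk2a at 0.81, Camk2b at 0.73 and Nrp1 at −0.54. With quantile normalization these last counts were 4 and 2, beside 510 higher and 796 lower of all 12102 genes. Between P0 and e14.5, 19 were higher and 1 lower, beside 22.7% and 23.1% of all genes, with Cdk5r2 at 2.62, Camk2b at 2.52, Camk2a at 1.88 and Numb at −0.63.

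To see which genes had the course most like each member, each of the 11807 genes whose mean reached 0 log2 RPKM was compared with it over the 44 libraries. The measure was the mean absolute difference of the log2 profiles after each was centred on its own mean, given as a description, since libraries of a stage share their stage. Dpysl3 and Dpysl5 were each other's nearest gene of all those searched, at 0.19. Dpysl5 was at 0.37 from Crmp1, where it was the 145th nearest gene, and Crmp1 was the 25th nearest of Dpysl5. Dpysl2 and Dpysl3 were the least alike pair in the family, at 1.09.

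After Dpysl5, the nearest genes of Dpysl3 were Vash2 at 0.23, Dcx at 0.24, St8sia2 at 0.25 and Fabp7 at 0.29. Dcx encodes doublecortin, a microtubule protein of migrating neurons, and had medians of 6.68, 7.26, 7.45, 7.30 and 1.71 log2 RPKM from e12.5 to adult. St8sia2 encodes a polysialyltransferase that modifies the adhesion molecule NCAM, with medians of 5.49, 5.79, 6.27, 6.62 and 0.20. Those of Dpysl5 after Dpysl3 were Sncaip at 0.23, Sh3bp2 at 0.24, Vash2 at 0.24 and Cxadr at 0.24.

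Crmp1 had the closest neighbours of the 5 members. Atat1, which encodes the enzyme that acetylates alpha-tubulin, was at 0.13 and had medians of 6.69, 7.24, 7.59, 7.83 and 4.81 log2 RPKM from e12.5 to adult. Mtss1 and Gmip were at 0.14, E130309F12Rik at 0.17 and Tubb3, the neuronal beta-tubulin, at 0.19. For Dpysl4 they were Pgd at 0.17, an enzyme of the pentose phosphate pathway, then Mmp15, Wdr6 and Cuedc1 at 0.20, and Lmnb2 at 0.21. The nearest genes of Dpysl2 were Nlgn3 at 0.22, which encodes a neuroligin of the synapse, and Prkag2, Rnf32, Cnr1 and Egln3, which were no farther than 0.23. Cnr1, a cannabinoid receptor gene, had medians of 4.14, 5.03, 5.54, 5.18 and 5.30.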

How the data were processed

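Per the labels' protocols, the stranded libraries of poly(A) RNA were sequenced from both ends (100 bp) at e12.5 and from a single end (50 bp) at the other stages. The deposited table holds log RPKM values of 12158 genes in 44 libraries, per the labels. The base was taken from the values: above a floor shared by several libraries, in 34 of 44 libraries at least 90% of the low values were whole-read steps (within 0.02 reads, up to 20 reads) with base 2, so the authors' values are treated as log2. The submitters' processing notes name bcl2fastq, STAR 2.4.2a and build mm9. Not given in the sources used here are the read counter, the annotation, the gene filter, the prior count and any normalization across libraries.

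No column of the 44 could be tied to a single labelled sample, since the labels list 1 sample per stage and genotype and do not explain the digit codes in the column names. The codes were not used, and the comparison of genotypes was not run. Libraries were grouped by the stage in the column name. A filter removed 56 genes whose mean did not exceed −2 log2 RPKM, leaving 12102. For 5 pairs of stages, a gene was called when the ranges did not overlap, and the share of all genes called in that direction is printed for each pair. The call was run on simulated libraries with known shifts, drawn for each gene from a normal distribution with the earlier stage's mean and spread. That setting has no genotypes, sexes or outlying library, so it does not show how the call behaves on these stages. No 2 libraries of a stage held identical values. Fold differences are 2 to the power of a difference of medians. The CRMP members, the partner list and the markers were chosen with earlier results of these data known. The text names all members, Chd8, up to 4 partners per direction for adult against P0 and up to 3 for the other pairs, and the 5 most alike genes of each member. Cdk5, Cdk5r2, Gsk3b, Fyn, L1cam, Nrp1 and Sema3a are also named in the adult comparison for their role, and Lhx2 and Gbx2 as tissue markers, after their values were seen. Another tissue marker is not reported here. The Chd8 peak list was not used here, as no annotation of mm9 was at hand. Alternatives were median centring, quantile normalization, an offset of 1 RPKM, no filter, a rule asking also for a 2-fold difference, leaving out each library, and, added after seeing the data, only 1 set of e17.5 libraries. Python 3.11.15 with pandas 2.3.3, numpy 2.4.6 and scipy 1.17.1 was used.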

Additional observations from a re-analysis of the deposited data

Results flagged for a closer look

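In 24 sets of libraries (each member and the family sum at e12.5, e14.5, e17.5 and adult), the extreme libraries were searched by Dixon's criterion. It compares the highest or lowest library with its nearest neighbour, and 7 values lay farther off than it allows. For independent sets from a single normal population it would flag about 1 in 20, or 1.2 here. These sets share libraries and mix genotypes and sexes, so that rate does not hold and the 7 cannot be set against it. Of the 7, 4 were adult library 1: Crmp1 at 8.01 log2 RPKM with the next library at 6.49, Dpysl3 at 7.65 with the next at 3.53, Dpysl5 at 6.56 with the next at 3.30, and the log2 of the family sum at 9.45 with the next at 7.70. At e17.5, library 2 was low for Crmp1, at 8.70 with the next at 8.97, and for the family sum, at 10.23 with the next at 10.37. At e12.5, library 8 was high for Dpysl2, at 5.76 with the next at 5.26. The family sums share their libraries with the members, so these are not separate events. P0, with 11 libraries, was not searched.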

How the results depend on the processing

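Of 590 recomputed differences of the 25 member differences, 579 moved by less than the spread between libraries, 11 moved further, all under quantile normalization, and 0 of those with ranges apart changed direction. Most of the 590 came from leaving out 1 library, which moves a median little, and those without the filter could not differ. Under quantile normalization alone, 11 of the 25 moved further. For adult over P0 the spread includes adult library 1, which makes it wide. Dpysl3, whose ranges overlapped at P0 over e17.5, differed by 0.08 there and by −0.01 under quantile normalization. Of 615 recomputed calls, 24 changed, none of them between adult and P0. Leaving out a library cannot undo a call of higher or lower. Neither the offset nor leaving out the filter can change a member's call. Asking also for a 2-fold difference left 0 members higher at e14.5 over e12.5, 0 at e17.5 over e14.5, 0 higher and 0 lower at P0 over e17.5, and 0 higher at P0 over e14.5. Under that rule 1108 genes were higher and 776 lower at e14.5 over e12.5 (otherwise 2794 and 2703), 568 and 406 at e17.5 over e14.5 (1590 and 1464), 72 and 50 at P0 over e17.5 (592 and 760), 1334 and 956 at P0 over e14.5 (2753 and 2792), and 1962 and 1597 at adult over P0 (3540 and 3052), since it asks for more. Quantile normalization left 1 member higher at e17.5 over e14.5 and 0 at P0 over e17.5, and the cause was not tested. Leaving out each library gave 0 to 1 members lower at e17.5 over e14.5. With only the e17.5 libraries S158 to S163, 1 member, Dpysl4, was lower at e17.5 over e14.5, and 1333 genes were higher and 1343 lower at P0 over e17.5, with fewer libraries in the range. With only S1 to S5, Crmp1 was also higher at e17.5 over e14.5 and Dpysl5 at P0 over e17.5. Dpysl5 was also higher there without P0 library 9. Against no scaling, median centring moved the median difference of all genes between adult and P0 to −0.10 and quantile normalization to −0.11. No paired analysis was possible because the columns carry no replicate number that the labels give. No difference between stages comes from a test.

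The libraries of each stage mix genotypes and sexes in numbers not known from the labels, so a range covers both. No count was given with the table, so no counting error stands beside a value.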
